A study of Homo sapiens with 24 samples.

Results

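The genes described are 7 genes named IFI, for interferon-inducible, that share a naming history rather than 1 family: IFI6, IFI27, IFI27L1, IFI27L2, IFI44, IFI44L and IFI35. They were taken by symbol from a table of TPM values (transcript abundances scaled for transcript length and to a fixed total per library), and make up 7 of its 60609 gene rows. Each symbol matched 1 row. The table describes A549, an established human lung adenocarcinoma line, transfected for 48 h with a siRNA pool against BOP1 (siBOP1) or with the control siRNA against firefly luciferase (siFLuc). The cells then received a mock treatment or interferon beta (IFN) at 1000 U/mL, and RNA was taken at 8 h or 12 h. This gave 8 groups: siFLuc mock, siFLuc IFN, siBOP1 mock and siBOP1 IFN, each at both times, with 3 libraries a group and 24 in all. All groups share the A549 background, the transfection and the poly(A)-selected library type, and BOP1 was lowered by RNA interference, not deleted.

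Interferon beta binds the receptor formed by IFNAR1 and IFNAR2, which activates the kinases JAK1 and TYK2. These phosphorylate transcription factors such as STAT2, which acts with IRF9 in the complex ISGF3. ISGF3 binds a DNA element in the promoters of interferon-stimulated genes, the interferon-stimulated response element (ISRE), and a second element of interferon signalling is called GAS. The 7 genes fall into 3 kinds. IFI6 and IFI27 encode small hydrophobic membrane proteins of the ISG12 family, reported at mitochondria, the endoplasmic reticulum or the nuclear envelope and linked to cell death and to virus restriction, and IFI27L1 and IFI27L2 are paralogs of IFI27. IFI44 and its neighbour IFI44L are a pair of cytoplasmic proteins that have been reported to bind FKBP5 and to dampen the interferon response. IFI35 is a leucine zipper protein that binds NMI, and released IFI35 and NMI have been reported to act on TLR4.

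Values of the whole table that touch these genes were as follows. BOP1 lay between 10.0 and 19.5 TPM in the siBOP1 libraries and between 32.4 and 78.8 TPM in the siFLuc libraries, with no overlap. The epithelial keratins KRT8 (2086 to 3803 TPM) and KRT18 (1785 to 2862 TPM) were high in every library. The other epithelial markers were lower, with KRT19 at 62.5 to 161, CDH1 at 23.8 to 105 and EPCAM at 1.92 to 5.48 TPM. Of the 9 markers of other cell types, COL1A1 (5.37 to 19.3 TPM) and CD14 (1.81 to 5.26 TPM) were above 0 in every library and made up most of the sum. The rest were at most 0.769 TPM, and CD3E was listed at 0 throughout. The sum of the 9 lay between 7.91 and 22.3 TPM in siFLuc and between 9.57 and 23.0 TPM in siBOP1 libraries, and its part in the results was not tested. Sequencing depth is unknown, since TPM keeps none. In 16 columns the library number (1 or 2) matched a labelled replicate. The remaining column of each group carries the number 4, whereas the labels number replicates up to 3, so it was used as a member of its group only. Nothing in the labels says that libraries came from separate cultures, so p-values measure the spread between these libraries.

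The start regions are shown first, to set the letters of the elements named above beside the response of each gene. RefSeq (GRCh38.p14) gave 9 windows for the 7 genes, each from 250 bases before to 50 bases after an annotated start. The ISRE core was searched on both strands as GAAANNGAAA, with N for any base. It was found in 3.57% of all 35116 windows and in 6 of the 9 windows of the 7 genes. These belong to 4 genes: IFI6, IFI27, IFI44 and IFI44L. IFI27 and IFI44 count with 2 overlapping windows each. The stretches below run 5′ to 3′ on the strand of the gene, with matches in capitals, and stop before any base annotated as a 5′ untranslated region, except for IFI35.
IFI6, minus strand, chr1:27672219-27672358: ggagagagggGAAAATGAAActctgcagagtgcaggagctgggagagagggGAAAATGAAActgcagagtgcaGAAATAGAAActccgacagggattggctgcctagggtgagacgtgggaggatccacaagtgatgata
IFI27, plus strand, chr14:94110618-94110677: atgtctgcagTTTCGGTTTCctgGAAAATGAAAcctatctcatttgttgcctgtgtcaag
IFI44, plus strand, chr1:78649729-78649788: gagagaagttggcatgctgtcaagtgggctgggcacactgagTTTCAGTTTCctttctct
IFI44L, plus strand, chr1:78620274-78620402: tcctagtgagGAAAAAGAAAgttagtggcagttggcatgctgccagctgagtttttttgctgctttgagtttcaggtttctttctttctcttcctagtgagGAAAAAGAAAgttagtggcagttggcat
IFI35, plus strand, chr17:43006754-43006783: gcagggatttcacgGAAATGAAAgtggaag

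IFI6 held 3 matches on its own strand, which began 156, 115 and 93 bases before the start. IFI27 held 2 matches, 1 on each strand, which began 108 and 95 bases before its first annotated start, and the GAS motif TTCNNNGAA overlapped both. In IFI44 the match was on the opposite strand and began 18 bases before the first start. The 2 matches of IFI44L lay within a direct repeat: a run of 85 bases around the first recurred letter for letter 91 bases further on. IFI35 had no ISRE core. Its window held a GAS motif and, overlapping it, a variant with 1 base fewer between the GAAA pairs, which is the match in capitals and lies in an annotated 5′ untranslated region. GAS motifs stood in 7.66% of all windows and in 3 of the 9, those of IFI27 and IFI35. With a spacer of 1 to 3 bases, a search added after the data were seen, 8.68% of all windows and 7 of the 9 had a match, in 5 of the 7 genes. It also found a shorter variant, GAAANGAAA, overlapping the match of IFI44, and a longer one, GAAANNNGAAA, between the matches of IFI44L. The windows of IFI27L1 and IFI27L2 held none of these motifs, which says only that these letters are not in the 300 bases searched.

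**Figure D1:**
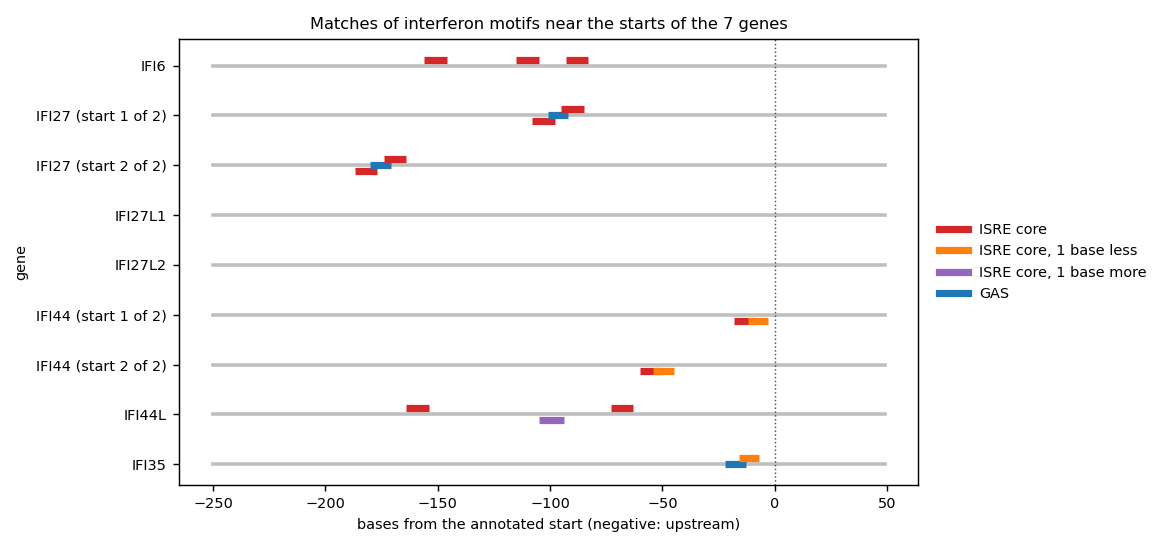
Matches of the interferon motifs in the windows around the annotated starts of the 7 genes. The x axis gives bases from the start, grey lines the 9 windows searched, bars above a line matches on the strand of the gene, bars below it matches on the opposite strand and bars on it GAS motifs. The lines of IFI27L1 and IFI27L2 carry no bar.

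The first question was how far IFN raised each gene. In all 4 comparisons of IFN with mock (siFLuc and siBOP1, 8 h and 12 h), 5 of the 7 genes rose: IFI27, IFI6, IFI44, IFI44L and IFI35. IFI27L1 and IFI27L2 did not pass the test in any. A gene was called where its adjusted p was under 0.05 in limma on log2(TPM + 1), adjusted over all 16062 genes tested. Of all tested genes, 10.8% were called in the siFLuc comparison at 8 h and 13.5% in that at 12 h. The siBOP1 comparisons called 15.1% at 8 h and 14.8% at 12 h. The median log2 fold change of all genes tested was -0.09, -0.06, -0.14 and -0.08 in that order (siFLuc first, 8 h before 12 h), which is used below. The median of the 7 genes, 5.55, 5.40, 5.53 and 5.14, is the value of IFI44L itself. IFI44L could enter the test only through the IFN libraries and had to differ, and without it 4 of 6 genes were called. The mean sum of the 7 genes was 108 to 117 TPM in the mock groups and 2796 to 4218 TPM in the IFN groups. In bulk RNA, more responding cells and more RNA per responding cell cannot be told apart.

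**Figure D2:**
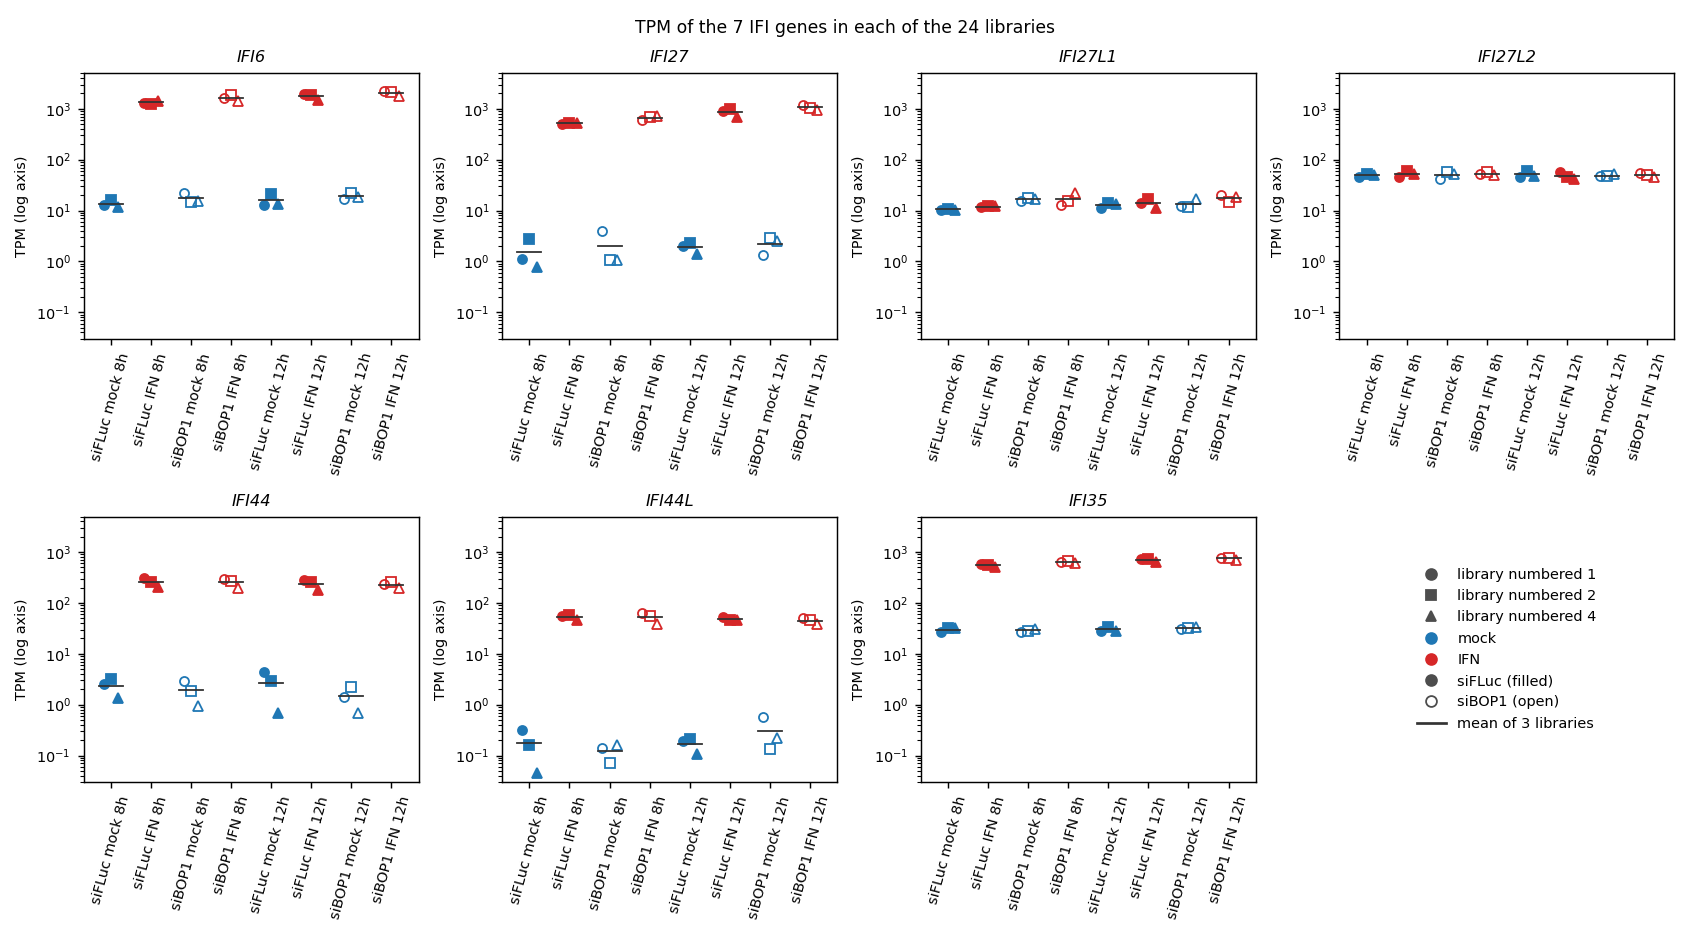
TPM of each of the 7 genes (log axis, the same in each panel) in the 24 libraries, grouped by siRNA, treatment and time. Symbols give the library number, filled symbols siFLuc, open symbols siBOP1, blue mock, red IFN, and bars the mean of 3 libraries. The IFN libraries lie above the mock libraries for IFI6, IFI27, IFI44, IFI44L and IFI35, and at the same level for IFI27L2.

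IFI27 (ENSG00000165949.12; chromosome 14, 94104836 to 94116698, plus strand, protein-coding, GENCODE 29 on GRCh38) had the largest fold change of the 7 in each comparison on the log2(TPM + 1) scale, while the ratio of group means was larger for IFI44L in siBOP1 cells at 8 h (419.7 against 336). With siFLuc at 8 h it was 1.10, 2.77 and 0.767 TPM in the mock libraries numbered 1, 2 and 4, and 508, 524 and 525 TPM under IFN. At 12 h with siFLuc the mock values were 2.05, 2.25 and 1.42 TPM and the IFN values 907, 1010.4 and 702 TPM. Every IFN library was thus above every mock library by at least 183 times at 8 h and 312 times at 12 h. In siBOP1 cells the mock values were 3.87, 1.05 and 1.07 TPM at 8 h and 1.31, 2.88 and 2.50 TPM at 12 h. The IFN values there were 612, 691 and 706 TPM at 8 h and 1197, 1057 and 966 TPM at 12 h. IFI27 had log2 fold changes of 7.75, 8.23, 7.93 and 8.41 (SE 0.28 each, largest limma adjusted p 6.09e-15). Among all genes tested these ranked 5, 4, 6 and 2 from the highest.

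IFI6 (ENSG00000126709.15; chromosome 1, 27666061 to 27672218, minus strand, protein-coding) was the most abundant of the 7 under IFN. With siFLuc at 8 h it went from 12.8, 16.4 and 11.7 TPM in the mock libraries to 1322, 1269.7 and 1437 TPM in the IFN libraries. At 12 h it went from 13.1, 20.7 and 13.4 TPM to 1933, 1878 and 1508 TPM. By its mean of 1773 ± 231 TPM (SD, n = 3), IFI6 ranked 79 among all 60609 rows in siFLuc cells after 12 h of IFN, against 6944 in mock cells. In siBOP1 cells it went from 21.9, 14.7 and 15.6 TPM to 1618, 1829 and 1432 TPM at 8 h, and from 17.2, 21.6 and 18.6 TPM to 2224, 2152 and 1779 TPM at 12 h. No mock and IFN libraries overlapped. The log2 fold changes of IFI6 were 6.53, 6.75, 6.48 and 6.67 in the order used above (SE 0.17 each, largest adjusted p 2.89e-17). IFI6 alone made up 47.9% to 49.1% of the summed TPM of the 7 genes in the IFN groups, and 12.7% to 16.3% in the mock groups. An annotated antisense gene overlaps IFI6, and whether counting used strand is not given in the sources used here.

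The paralogs of IFI27 on either side of it on chromosome 14 behaved otherwise. IFI27L1 (ENSG00000165948.11; 94081282 to 94103846, plus strand) lies upstream of IFI27, and IFI27L2 (ENSG00000119632.4; 94127779 to 94130253, minus strand) downstream. IFI27L2 lay between 40.9 and 60.5 TPM in all 24 libraries, with mock and IFN libraries overlapping in each comparison. Its log2 fold changes with IFN were 0.08, -0.09, 0.10 and 0.03 (SE 0.13 each, adjusted p 0.688 to 0.914). The 95% confidence intervals of IFI27L2 reached at most 0.37 above and 0.37 below 0 on the log2 scale. IFI27L2 was the most abundant of the 7 genes in mock cells, at 49.4 ± 2.92 TPM (SD, n = 3) with siFLuc at 8 h, and stood below IFI6, IFI27, IFI35 and IFI44 under IFN.

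IFI27L1 lay between 10.4 and 22.1 TPM. In siFLuc cells at 8 h its mock values were 10.4, 10.7 and 10.4 TPM and its IFN values 11.7, 12.1 and 12.1 TPM. These groups did not overlap, but the difference was small against the spread of IFI27L1 over all groups, with a log2 fold change of 0.17 (SE 0.18, 95% interval -0.20 to 0.53, adjusted p 0.628). In the other 3 comparisons the IFN and mock libraries overlapped, with log2 fold changes of 0.11, -0.02 and 0.37. The last had the widest gap of means, 13.6 ± 2.58 TPM in mock and 17.8 ± 3.11 TPM under IFN (SD, n = 3 each), and an adjusted p of 0.183. How reads shared between IFI27 and its paralogs were assigned is not given in the sources used here.

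IFI44 and IFI44L lie next to each other on chromosome 1 in the same orientation. IFI44 (ENSG00000137965.11; 78649796 to 78664078, plus strand) was 2.58, 3.15 and 1.33 TPM in siFLuc mock libraries at 8 h and 305, 263 and 210.3 TPM under IFN. At 12 h the values were 4.46, 2.90 and 0.694 TPM in mock and 282, 261 and 177 TPM under IFN. The library numbered 4 was the lowest of its group for IFI44 in all 8 groups. This was not particular to IFI44. In the 4 IFN groups that library was also the lowest in all 4 for IFI44L and IFI35, and in 3 for IFI6 and IFI27L2. For IFI27 it was the lowest in 2 IFN groups and the highest in 2, and for IFI27L1 the lowest in 1 and the highest in 1. In siBOP1 cells IFI44 went from 2.90, 1.88 and 0.951 TPM to 289.6, 269 and 201 TPM at 8 h, and from 1.42, 2.26 and 0.688 TPM to 241, 253 and 195 TPM at 12 h. For IFI44 the log2 fold change was 6.30, 6.16, 6.49 and 6.60 (SE 0.34 each, largest adjusted p 1.02e-11). Without the libraries numbered 4 they were 6.20, 5.88, 6.39 and 6.46 (SE 0.19 each).

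IFI44L (ENSG00000137959.16; chromosome 1, 78619922 to 78646145, plus strand) was the least abundant of the 7 in mock cells. Its siFLuc mock values were 0.315, 0.158 and 0.045 TPM at 8 h and 0.194, 0.207 and 0.108 TPM at 12 h, against 56.3, 58.1 and 47.2 TPM and 52.3, 46.7 and 46.6 TPM under IFN. With siBOP1 it went from 0.140, 0.072 and 0.160 TPM to 62.4, 55.7 and 38.0 TPM at 8 h, and from 0.571, 0.137 and 0.223 TPM to 49.5, 46.9 and 38.9 TPM at 12 h. IFI44L reached 1 TPM only in the 12 IFN libraries. Its log2 fold changes were 5.55, 5.40, 5.53 and 5.14 (SE 0.16 each), and these depend on the value added before taking logs. With 0.1 TPM added in place of 1 they were 7.75, 7.51, 7.85 and 6.92. The ratio of the group means was 312, 286, 419.7 and 145, the last with the mock library at 0.571 TPM, the highest of IFI44L in mock cells.

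The ratio of IFI44 to IFI44L kept to a narrower range under IFN than in mock cells. IFI44 was 3.79 to 5.57 times IFI44L in the 12 IFN libraries, with group medians of 4.53, 5.39, 4.82 and 5.01. In mock cells the ratio ran from 2.48 to 29.6, where IFI44L was at most 0.571 TPM.

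IFI35 (ENSG00000068079.7; chromosome 17, 43006725 to 43014456, plus strand) started from the highest level of the genes that rose and had the smallest fold change among them. With siFLuc it went from 26.5, 31.6 and 32.0 TPM to 586, 569 and 514 TPM at 8 h, and from 28.2, 33.9 and 28.5 TPM to 731, 744 and 630.3 TPM at 12 h. With siBOP1 it went from 26.3, 28.6 and 31.3 TPM to 645, 673 and 605 TPM at 8 h, and from 30.4, 32.2 and 33.7 TPM to 774, 768 and 709.7 TPM at 12 h. The lowest IFN library was 16.0 to 21.1 times the highest mock library. IFI35 had log2 fold changes of 4.17, 4.50, 4.43 and 4.50 with the smallest error of the 7 (SE 0.10 each, largest adjusted p 5.05e-18). In added TPM the order differs from the order by fold: IFI35 gained 526 TPM in siFLuc cells at 8 h, about as much as IFI27 (517 TPM), whereas IFI6 gained 1329, IFI44 257 and IFI44L 53.7 TPM.

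**Figure D3:**
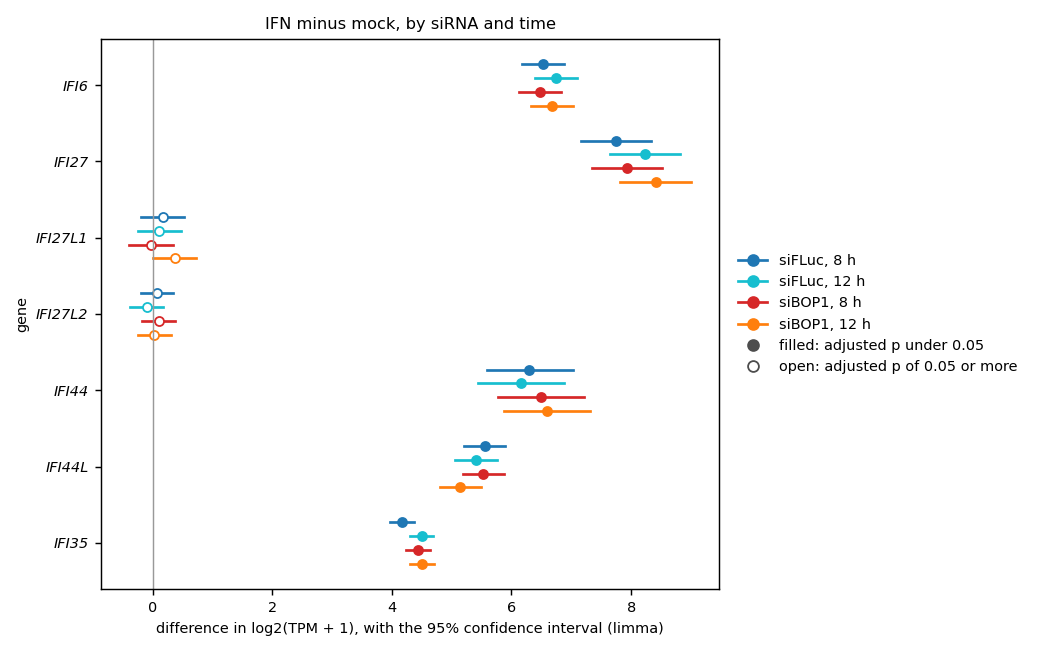
Difference in log2(TPM + 1) between IFN and mock for the 7 genes (points) with 95% confidence intervals (lines), by siRNA and time. Filled points have a limma adjusted p under 0.05 and open points do not. The 5 genes called lie between 4.17 and 8.41, and the intervals of IFI27L1 and IFI27L2 lie within 0.73 of 0.

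The signalling line that acts on these genes changed in part. STAT2 and IRF9, which act together in ISGF3, rose in all 4 comparisons, by at least 3.74 and 2.58 on the log2 scale. The receptor chain IFNAR1 was lower at 8 h by -0.59 in siFLuc cells (limma adjusted p 0.00357) and -0.41 in siBOP1 cells (0.0363). The medians of all genes there were -0.09 and -0.14. At 12 h IFNAR1 had -0.24 with siFLuc and -0.17 with siBOP1 and was not called (limma adjusted p 0.248 and 0.432). IFNAR2 was higher in siBOP1 cells at 12 h, by 0.55 (adjusted p 0.0277). In siFLuc cells at 12 h IFNAR2 had 0.45 and was not called (limma adjusted p 0.0742). JAK1 and TYK2 passed the test in no comparison. The 4 comparisons called 10.8% to 15.1% of all genes tested. Interferon genes were too low to test. IFNB1 was listed at 0 in all mock libraries and reached at most 0.294 TPM under IFN. IFNL2 and IFNL3 were listed at 0 in all mock libraries and lay between 0.107 and 1.16 TPM under IFN, and IFNL1 was at most 0.099 TPM in mock and 0.117 to 1.11 TPM under IFN.

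Among 8 genes whose proteins have been reported as partners of the 7, NMI, the partner of IFI35, rose in all 4 comparisons, by 2.55, 2.43, 2.48 and 2.59 (SE 0.11 each, limma). HSPA5, an endoplasmic reticulum chaperone reported with IFI6, rose at 12 h, by 0.56 in siFLuc and 0.51 in siBOP1 cells (adjusted p 0.0109 and 0.0198). SKP2, a ubiquitin ligase subunit reported with IFI27, was lower at 12 h, by -0.41 and -0.40 (adjusted p 0.0465 and 0.0477). At 8 h SKP2 had -0.31 with each siRNA and was not called (limma adjusted p 0.159 and 0.133). TLR4 rose in siFLuc cells at 12 h, by 0.49 to a mean of 2.03 TPM (adjusted p 0.0427), and had 0.46 at 8 h (0.0704). FKBP5, reported with IFI44 and IFI44L, NR4A1 and XPO1 were not called, and BATF was listed at 0 in every library. The counts were 1, 3, 1 and 2 higher and 0, 1, 0 and 1 lower of 7 tested, with medians of 0.26, 0.34, 0.14 and 0.11 against -0.09, -0.06, -0.14 and -0.08 for all genes. With 10.8%, 13.5%, 15.1% and 14.8% of all genes called, 1 of 7 at 8 h was near the background.

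Most other genes whose symbols begin with IFI changed with the 5. Of 11 tested, 10 were called higher in each comparison, with medians of 4.12, 4.51, 4.13 and 4.46, where 10.8%, 13.5%, 15.1% and 14.8% of all genes were called in either direction and the medians of all genes were -0.09, -0.06, -0.14 and -0.08. IFIT1, which binds foreign RNA ends, exceeded IFI27 in each, with 8.72, 8.39, 8.98 and 8.69. IFI30, a lysosomal thiol reductase, had the smallest rise in each, with 1.71, 2.34, 1.80 and 2.25. IFITM10 was not called, with group means of 0.634 to 1.39 TPM, and IFIT1B and IFITM5 were too low to test.

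The nearest tested genes on the chromosomes of the 7 were counted in the same way. Their distances ran from 37 bases (DDX24 from IFI27L1) to 5218883 bases (TTLL7 from IFI44L), so not all were adjacent. Of 16 tested neighbours (the nearest 2 on each side), 0, 1, 0 and 2 were called higher and 1, 3, 2 and 2 lower, with medians of -0.12, -0.17, -0.05 and -0.05 against -0.09, -0.06, -0.14 and -0.08 for all genes. The shares of all genes called, in either direction, were 10.8%, 13.5%, 15.1% and 14.8%. The 4 of 16 in siFLuc cells at 12 h was above its share, and 1 or 2 of 16 at 8 h below. The 4 of 16 in siBOP1 cells at 12 h included LINC02574, called higher by 1.2 (limma adjusted p 0.0082). LINC02574 was listed at 0 in all mock libraries and could enter the test only through the IFN libraries. Those called lower at 12 h included TTLL7 with both siRNAs and SERPINA6 with siFLuc, 173995 bases or more from the 7. VAT1 ends 149 bases from IFI35 on the opposite strand and fell in all 4 comparisons, by -0.48, -0.92, -0.59 and -0.94 on the log2 scale (SE 0.13 each, adjusted p 0.0158, 2.02e-05, 0.00281 and 1.67e-05). DDX24, an RNA helicase gene 37 bases from IFI27L1, had log2 fold changes of 0.18, 0.11, 0.09 and 0.22 and was not called. VAT1 and DDX24 were picked after their values were seen.

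Genes with the most similar pattern over the 24 libraries were found by Pearson r of log2(TPM + 1), given as a description. The 12 mock and 12 IFN libraries form separate clusters in these values, so r mainly reflects that split. ISG15 (0.999), BST2 (0.998) and PSMB9 (0.997) were closest to IFI6. Closest to IFI27 were ISG15 (0.998) and BST2 (0.997), and to IFI44 IFIT1 (0.996), SAMD9 (0.996) and TRIM14 (0.995). IFI44L lay nearest to MX1, OASL and RSAD2, and IFI35 to XAF1, OAS3 and LAP3 (0.998 each). Between 255 and 287 genes had an r above 0.95 with each of these 5. IFI27L1 and IFI27L2 had none, and their closest genes were SSR4 (0.806) and SNORD3A (0.601). The r between IFI27 and its paralogs was 0.308 for IFI27L1 and 0.078 for IFI27L2, against 0.998 for IFI6.

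The second question was whether lowering BOP1, a factor of large ribosomal subunit maturation, changed the 7 genes. With limma none of the 7 was called, neither in mock cells, where 2.16% (8 h) and 1.6% (12 h) of all genes tested were, nor under IFN, where 2% and 0.66% were. At an unadjusted limma p under 0.05, 1, 0, 2 and 0 of the 7 passed, beside 2076, 2051, 2191 and 1444 of the 16062 genes tested. The median log2 difference of the 7 was 0.00, 0.09, 0.21 and 0.10, against 0.03, 0.00, -0.01 and -0.01 for all genes.

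IFI27L1 came nearest. In mock cells at 8 h it was 15.6, 17.8 and 16.6 TPM with siBOP1 and 10.4, 10.7 and 10.4 TPM with siFLuc. The groups did not overlap, and the log2 difference was 0.61 (SE 0.18, 95% interval 0.25 to 0.98, limma adjusted p 0.0763). With the column number as a replicate block the adjusted p was 0.0385, a fit in which 8.49% of all genes were called. Under IFN at 8 h the siBOP1 libraries (12.7, 15.4 and 22.1 TPM) were again all above the siFLuc libraries (11.7, 12.1 and 12.1 TPM), with a difference of 0.42 (adjusted p 0.270). At 12 h the groups overlapped, with 0.06 in mock cells (0.943) and 0.31 under IFN (0.660).

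IFI6 was higher on average with siBOP1 in each comparison, by 0.32 (8 h) and 0.29 (12 h) in mock cells and 0.27 and 0.21 under IFN, and was not called (SE 0.17 each, limma adjusted p 0.459 to 0.839). The 95% intervals of IFI6 lay between -0.14 and 0.67 over the 4 comparisons. Over treatments and times together, an average added after the data were seen, IFI6 was higher by 0.27 (SE 0.08, adjusted p 0.0288) and IFI27L1 by 0.35 (SE 0.09, adjusted p 0.00775). That comparison called 16.9% of all genes tested. The call for IFI6 was lost without the libraries numbered 4 (adjusted p 0.0759), after median-of-ratios rescaling (0.0591), without the filter on low values, with the block on labelled replicates (0.0715) and when any 1 of 9 of the 24 libraries was left out (largest adjusted p 0.0573). These were the libraries numbered 4 of siFLuc mock 8 h, siFLuc mock 12 h and siFLuc IFN 12 h, those numbered 1 of siFLuc mock 12 h, siBOP1 mock 8 h and siBOP1 IFN 12 h, and those numbered 2 of siBOP1 IFN 8 h, siBOP1 mock 12 h and siBOP1 IFN 12 h. The call for IFI27L1 was kept when any 1 library was left out and lost without all libraries numbered 4 (adjusted p 0.0789, or 0.0806 with a block).

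The intervals for the other genes, from the fit without a block, bound what that fit could have shown. With the column number as a replicate block the SE of IFI44 was 0.19 against 0.34. That of IFI44L was 0.13 against 0.16, and that of IFI27 was 0.28 in both. For IFI35, the most precisely measured, they lay between -0.26 and 0.40 in the 4 siBOP1 comparisons. For IFI27L2 they lay between -0.35 and 0.33, for IFI44L between -0.45 and 0.49, for IFI27 between -0.46 and 0.95, and for IFI44 between -1.20 and 0.68.

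**Figure D4:**
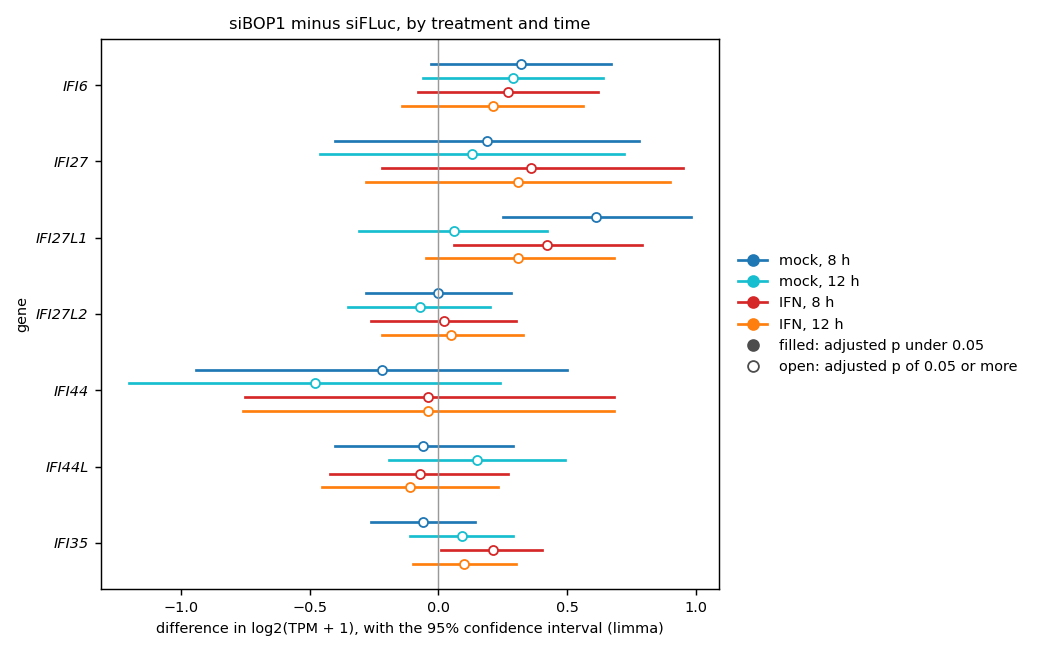
Difference in log2(TPM + 1) between siBOP1 and siFLuc for the 7 genes with 95% confidence intervals, by treatment and time. All points are open, since no adjusted p was under 0.05. The largest difference is 0.61, for IFI27L1 in mock cells at 8 h.

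Whether the response to IFN itself differed between the siRNAs was tested as an interaction. No gene of the 7 was called at 8 h or 12 h, and none of all genes tested was (0% and 0%). With limma, 353 and 259 of all genes had an unadjusted p under 0.05, and none of the 7 did. For IFI35 at 8 h the log2 fold change was larger in siBOP1 than in siFLuc cells by 0.26 (95% interval -0.02 to 0.55), and at 12 h by 0.01 (-0.27 to 0.29). For IFI27 the interaction was 0.18 at both times, with a lower bound of -0.65, and for IFI6 -0.05 (-0.55 to 0.45) and -0.08 (-0.58 to 0.42). IFI44 had the largest value, 0.44 at 12 h, with an interval from -0.58 to 1.45. Its SE there was 0.49, or 0.27 with the column number as a replicate block. The remaining interactions lay between -0.26 and 0.26.

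The third question was whether the genes differed between 8 h and 12 h of IFN. Within each siRNA none of the 7 was called, where 3.53% (siFLuc) and 2.96% (siBOP1) of all genes were. At an unadjusted limma p under 0.05, 3 and 2 of the 7 passed, beside 3094 and 2897 of the 16062 genes tested. The median difference of the 7 was 0.21 and 0.11, and that of all genes 0.09 in both.

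IFI27 had the largest difference. Its IFN libraries lay at 508 to 525 TPM at 8 h and 702 to 1010.4 TPM at 12 h with siFLuc, and at 612 to 706 and 966 to 1197 TPM with siBOP1. The times did not overlap in either, with log2 differences of 0.73 (siFLuc) and 0.68 (siBOP1) (SE 0.28 each, limma adjusted p 0.153 and 0.204). IFI35 likewise did not overlap between times, at 514 to 586 and 630.3 to 744 TPM with siFLuc and at 605 to 673 and 709.7 to 774 TPM with siBOP1. Its differences were 0.33 (SE 0.10, adjusted p 0.0555) and 0.23 (adjusted p 0.205). With a replicate block on the column number the first had an adjusted p of 0.0152, a fit in which 18.3% of all genes were called. IFI6 differed by 0.39 and 0.34 (adjusted p 0.205 and 0.305), with overlapping libraries in siBOP1 cells and none in siFLuc cells.

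An average over both siRNAs, added after the data were seen, called 3 of the 7 higher at 12 h: IFI27 by 0.70 (SE 0.20, limma adjusted p 0.0212), IFI6 by 0.36 (SE 0.12, adjusted p 0.0431) and IFI35 by 0.28 (SE 0.07, adjusted p 0.00799). It called 15.5% of all genes tested. These calls depended on the form of scaling. Quantile normalization, which moved the median of all genes from 0.09 to 0.0, ended none of the 3. Median-of-ratios rescaling moved that median to -0.01, and the differences became 0.59 (adjusted p 0.0582), 0.25 (0.228) and 0.16 (0.219). The call for IFI27 was also lost with 0.1 TPM added (0.0977), without the filter on low values and with the block on labelled replicates (0.0511). The call for IFI6 was lost in 5 settings in all, among them 0.1 TPM added (0.0503), no filter on low values, no variance trend and the labelled replicates alone. It held without the library numbered 4 of siFLuc IFN 12 h or of siBOP1 IFN 12 h or that numbered 2 of siBOP1 IFN 8 h, and was lost without any 1 of the other 9 IFN libraries (largest adjusted p 0.111).

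IFI44 and IFI44L had differences below 0 at 12 h and were not called. IFI44 differed by -0.13 with each siRNA and IFI44L by -0.14 and -0.18, with overlapping libraries. On the average over siRNAs their 95% intervals were -0.64 to 0.38 and -0.40 to 0.08. IFI27L1 and IFI27L2 had average differences of 0.16 and -0.10.

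**Figure D5:**
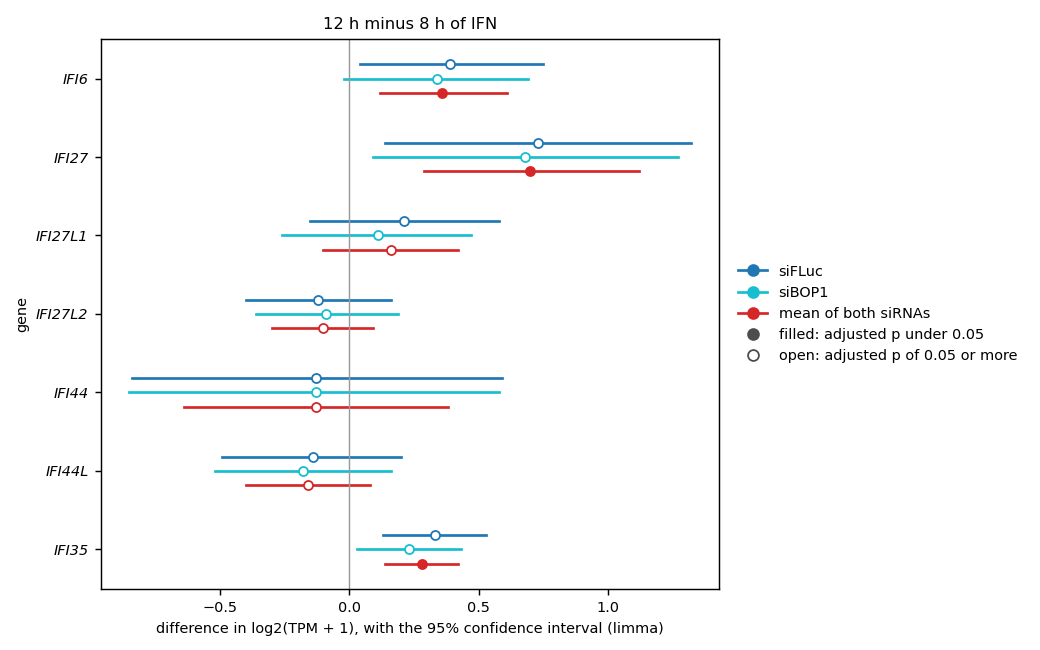
Difference in log2(TPM + 1) between 12 h and 8 h of IFN for the 7 genes with 95% confidence intervals, for each siRNA and for the mean of both. Filled points, those of IFI6, IFI27 and IFI35 on the mean of both siRNAs, have a limma adjusted p under 0.05.

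Ratios within a library do not depend on the scaling to a fixed total, and are given as descriptions. Under IFN the siFLuc medians of IFI27 over IFI35 were 0.921 (8 h) and 1.24 (12 h), and the siBOP1 medians 1.03 and 1.38. The 3 libraries at 12 h were all above the 3 at 8 h with each siRNA (1.11 to 1.36 against 0.867 to 1.02, and 1.36 to 1.55 against 0.949 to 1.17). IFI6 over IFI27 went the other way, with medians of 2.60 (8 h) and 2.13 (12 h) for siFLuc and of 2.64 and 1.86 for siBOP1. In the mock groups the median of IFI6 over IFI27 lay between 7.50 and 14.0. IFI27 was thus higher relative to both genes under IFN than in mock cells.

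Whether the fold change over mock differed between the times was tested as a time by IFN interaction. None of the 7 was called in siFLuc cells, where 0.00623% of all genes were, or in siBOP1 cells, where 0% were. In siFLuc cells IFI35 had the only unadjusted p under 0.05 of the 7, with 0.33 (95% interval 0.05 to 0.61, limma adjusted p 1). IFI27 had 0.47 and 0.48 with the 2 siRNAs (interval -0.36 to 1.31 in both), and IFI44L -0.14 and -0.39.

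For the order of levels, the IFN groups of IFI6 ran from siFLuc 8 h (1343 ± 85.5 TPM) through siBOP1 8 h (1626 ± 199 TPM) and siFLuc 12 h (1773 ± 231 TPM) to siBOP1 12 h (2052 ± 239 TPM; SD, n = 3 each). Each pair of neighbours in that order had overlapping libraries. IFI27 had the same order, at 519 ± 9.10, 669.8 ± 50.3, 873 ± 157 and 1074 ± 116 TPM (SD, n = 3 each). IFI35 did too, at 556 ± 37.9, 641 ± 34.1, 702 ± 62.2 and 750.4 ± 35.5 TPM (SD, n = 3 each). For both genes the lowest 2 groups did not overlap and did not pass the test (limma adjusted p 0.651 and 0.344), and the other neighbours overlapped. IFI44 had another order, from siBOP1 12 h (229.6 ± 30.7 TPM) through siFLuc 12 h (239.7 ± 55.7 TPM) and siBOP1 8 h (253 ± 46.1 TPM) to siFLuc 8 h (259 ± 47.3 TPM; SD, n = 3 each), all overlapping. IFI44L followed that order of groups, from 45.1 ± 5.52 to 53.9 ± 5.87 TPM (SD, n = 3 each), also overlapping. Over all 8 groups the means of IFI27L2 lay between 48.2 and 52.9 TPM, with overlapping libraries. Those of IFI27L1 ran from 10.5 ± 0.191 TPM in siFLuc mock cells at 8 h to 17.8 ± 3.11 TPM in siBOP1 cells after 12 h of IFN (SD, n = 3 each).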

How the data were processed

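The deposited table holds TPM values that the authors computed for 60609 genes and 24 libraries, and each column sums to about 1000000, as summed here. The aligner, quantification tool, genome build and annotation are not given in the sources used here. A stranded mRNA preparation was used, per the labels' protocols. Row identifiers were named from a table of Ensembl identifiers (60340 rows). Positions are from GENCODE 29 on GRCh38, which held 41779 of the identifiers with the same version and 58502 with any, so it may not be the annotation of the table. Column names gave groups and numbers.

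The filter kept 16062 genes that reached 1 TPM in 3 or more libraries. Their log2(TPM + 1) values entered 1 limma model (version 3.58.1, R 4.3.3; group means as coefficients, all 24 libraries, moderated variance with an intensity trend), from which 14 comparisons were drawn. The averages over siRNAs or treatments and the wider motif spacing were added after the data were seen. P-values were adjusted by Benjamini-Hochberg over all genes of a comparison, with a threshold of 0.05. The added 1 TPM makes fold changes of low genes too small. On simulated data with 200 changed genes the fit called 76% of those changed by 1 and 96% of those changed by 2 on the log2 scale. The simulated libraries varied independently, without the shared deviations of equal column numbers described below. These shares may thus not hold for the data. Since every column has the same total, a rise of some transcripts lowers the rest.

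Libraries of the same column number deviated together within a time. The correlation across genes of their deviations from the group means ran from 0.115 to 0.508 over the 3 numbers in the 8 comparisons of treatment or siRNA, and counts as a pairing. With only replicates 1 and 2, which the labels number, the range was -0.012 to 0.156. For 8 h against 12 h it ran from -0.113 to 0.166.

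The 7 genes and the lists were chosen with earlier results of these data known. Genes named beside them follow a rule: genes of the lists (signalling line, interferon genes, reported partners, other IFI symbols, the 2 nearest tested genes on each side), the 3 genes with the highest r to each of the 7, and BOP1. Some genes under this rule are not reported here. Alternatives were a pseudocount of 0.1, no filter, a mean of at least 5 TPM, median-of-ratios rescaling, quantile normalization, no trend, only the groups compared, replicate blocks by label or by column number, labelled replicates only, and leaving out each library. Figures and tables used Python 3.11.15 with pandas 2.3.3 and numpy 2.4.6.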

Additional observations from a re-analysis of the deposited data

How the results depend on the processing

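The count of 5 called genes of the 7 in each IFN comparison, and of 0 in each interaction, held under every alternative run and with any 1 library left out. Over those settings the log2 fold change of IFI6 lay between 6.38 and 6.95, of IFI27 between 7.52 and 8.92, of IFI44 between 5.68 and 7.34 and of IFI35 between 4.08 and 4.59. IFI44L could pass the filter at 1 TPM only through the IFN libraries, so its calls under that filter had to hold. With a mean of at least 5 TPM this was so for IFI27, IFI44 and IFI44L. The mock group means of IFI27 and IFI44 were at most 2.23 and 2.68 TPM. In mock cells at 8 h, 1 of the 7 (IFI27L1) was called for siBOP1 with the replicate block by column number, and 2 on the average over treatments and times. For 12 h against 8 h of IFN in siFLuc cells, 1 of the 7 (IFI35) was called with the filter at a mean of 5 TPM (adjusted p 0.0469), with the replicate block by labelled number (0.0266) and with that by column number (0.0152), and 3 on the average over siRNAs. The block changed no other call in the 14 comparisons. On the averages, the block by labelled number ended the calls for IFI6 and IFI27L1 with siBOP1 and for IFI27 with time. The call for IFI6 with time held in 6 of 11 settings, the reported one included, and in 3 of 12 fits with 1 library left out. Those for IFI27 and IFI35 with time held in 7 and 10 of the 11 settings, and in all 12 of those fits. Values that were not called changed sign in 34 of 1120 results under other settings and in 83 of 1008 with 1 library left out, all with a difference of at most 0.22 in size before. The ISRE core was in the windows of 4 of the 7 genes, and of 3 when a C had to follow it. Median-of-ratios rescaling moved the share of higher genes among all called from 53.2% to 69.1% (siFLuc, 8 h), 52.4% to 63.1% (siFLuc, 12 h), 39.7% to 65.5% (siBOP1, 8 h) and 48.6% to 62.4% (siBOP1, 12 h) for IFN, from 69.2% to 57.3% for siBOP1 in mock cells at 8 h, and from 80.2% to 50.5% and 82.7% to 45.2% for 12 h against 8 h. It moved the median of all genes by more than 0.1 for IFN in siBOP1 cells at 8 h, from -0.14 to -0.01. The block by column number called 3370, 4326, 4653 and 4487 of all genes for IFN, against 1741, 2166, 2426 and 2370. With 3 libraries a group and unknown depth, differences of about the size of the intervals given could not be told from 0 in the fit without a block.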
